A study of Mus musculus with 24 samples.

Results

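Old and young asbestos Siglec F-low macrophages were compared in 8 of the 24 RNA-seq libraries of the series, 4 from old and 4 from young mice by their labels. Of the 43430 genes in the deposited count table, 12463 were abundant enough in these libraries to be tested. All mice of the series were C57BL/6J. By the sample labels the young were 8 to 12 weeks old and the old more than 18 months. Both groups compared here had received asbestos fibres, and 28 days later lung macrophages with a low surface level of the lectin Siglec F were sorted by flow cytometry. The other sorts of the series were Siglec F-high cells of the same asbestos groups and of naive young and old mice, 4 libraries each. No naive Siglec F-low group was analysed here, so an age difference present before asbestos and one that came after it cannot be told apart in this sort. Libraries were made from 30 ng of RNA after poly(A) selection with a kit that does not mark strand, so reads of genes that overlap on opposite strands cannot be told apart. The labels do not say whether a library was 1 animal or a pool, and the p-values measure the spread between these libraries.

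Alveolar macrophages are the phagocytes of the airspace. The tissue-resident ones are seeded around birth, renew themselves by division and carry a high level of Siglec F, a receptor of the sialic acid-binding lectin family. After lung injury, circulating monocytes enter the airspace and turn into monocyte-derived alveolar macrophages, which gain Siglec F slowly and are known in lung fibrosis as a source of matrix-modifying enzymes and of growth factors for fibroblasts.

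The levels of defining markers were first set against the label. Values across sorts are CPM, the reads of a gene scaled to a fixed library total with trimmed mean of M values (TMM) factors, from 22 libraries that leave out replicate 3 of the young and of the old asbestos Siglec F-high groups. Siglecf was at 250.1 to 309 CPM in the young and 156 to 234 CPM in the old Siglec F-low libraries, below each of the 14 Siglec F-high libraries, which held 461 to 651 CPM. Itgam, the integrin alpha M chain (CD11b) of monocytes and newly recruited macrophages, was at 33.1 to 49.4 CPM in young and 67.1 to 117 CPM in old Siglec F-low libraries, against 7.63 to 33.2 CPM in Siglec F-high ones. From here on CPM are on the scale of the 8 Siglec F-low libraries. The macrophage genes Cd68 (1117 to 1421 CPM), Mertk (316 to 548 CPM) and Lyz2 (20240 to 31180 CPM) were abundant in all 8, as were Marco (253 to 634 CPM), Pparg (163 to 254 CPM) and Car4 (807 to 1123 CPM), which mark mature alveolar macrophages. Ly6c2, which marks classical monocytes, was at 0.115 to 2.66 CPM. The 8 libraries held 14566720 to 17462808 counts on 17146 to 18266 genes, with 0.298 to 0.485% of counts on rRNA-related genes, and each correlated with the rest of its group at 0.988 to 0.992 across genes. The 2 libraries left out of the 22 stood apart: in the young one 12528 genes had reads and the correlation was 0.865, and the old one had 3894699 counts, 55.4% of them rRNA-related.

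Old and young Siglec F-low cells differed in 798 of the 12463 genes, with 456 higher and 342 lower in old cells (edgeR quasi-likelihood F test on the 8 libraries, Benjamini-Hochberg adjusted p under 0.05, which is what "called" means here). These are 6.4% of the genes tested, 3.66% higher and 2.74% lower, and each gene list is read beside these shares. The rises were the greater: the median log2 fold change was 0.82 among called higher and -0.54 among called lower genes, and 177 rose but 29 fell by 2-fold or more. The CPM of 752 of the 798 did not overlap between the ages, 6.03% of the genes tested, where 13.5% of all genes tested, called or not, did not overlap. Log2 fold changes had a median standard error (SE) of 0.11. The first principal component held 37.7% of the variance and separated the ages, with the young libraries at -26.3 to -15.3 and the old at 17.1 to 28.2. When the other sorts shared the fit and its estimate of spread, 983 genes (7.21%, 3.8% higher and 3.41% lower) were called with 22 libraries and 174 (1.29%) with all 24, of which 689 and 164 were among the 798, in the same direction. Of 95 called genes named by rule, 55 were not called with all 24 libraries.

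**Figure D1:**
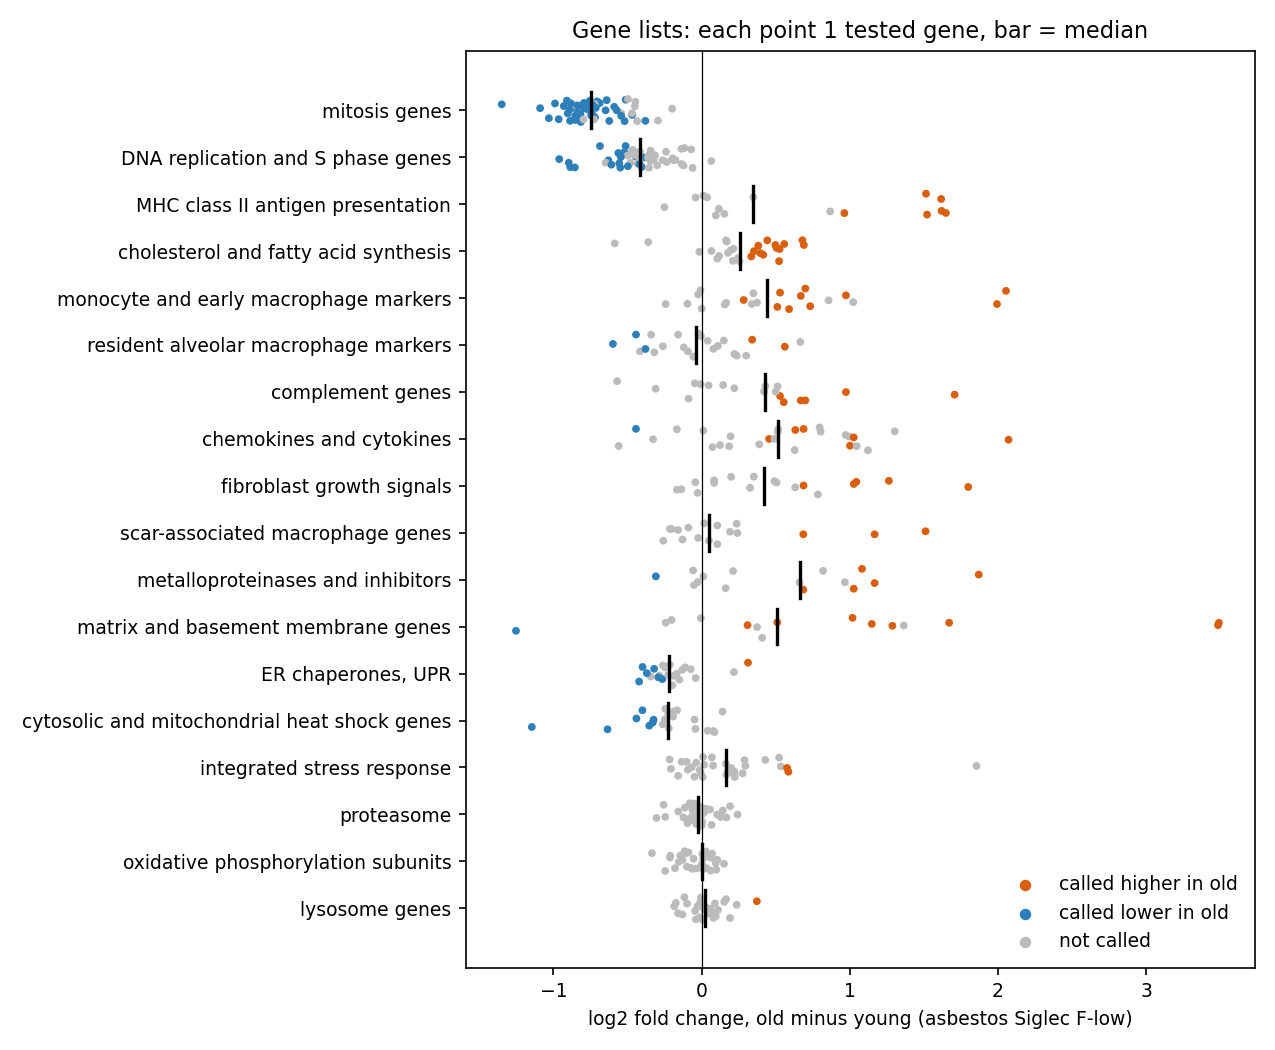
Log2 fold change, old minus young, of every tested member of 18 gene lists in asbestos Siglec F-low libraries (x axis, log2 scale); orange points were called higher in old, blue points called lower, grey points not called, and bars are list medians. The 57 mitosis genes all lie left of 0, with a median of -0.74, and the 6 called members of the MHC class II list all lie right of it.

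Of the 12 higher called genes of smallest p, Ecm1 and the class II genes H2-Aa, Cd74 and H2-Ab1, described further on, were already abundant in young cells, at 94 to 113, 252 to 286, 1090 to 1192 and 302 to 370.3 CPM, and the rest rose from lower levels. Pla2g2d, a secreted phospholipase A2 (ENSMUSG00000041202, chromosome 4, 138775735 to 138782046, plus strand), was at 5.94, 3.98, 7.42 and 4.72 CPM in the young and 51, 67.4, 39.6 and 55.9 CPM in the old libraries. Every old library was far above every young one, for a log2 fold change of 3.28 ± 0.19 (SE; edgeR adjusted p 5.72e-06). Cd209b, a C-type lectin that binds glycans of microbes and of the host (ENSMUSG00000065987, chromosome 8, 3917655 to 3926844, minus strand), was at 0.921 to 1.08 CPM in young and 6.81 to 10.2 CPM in old libraries (3.03 ± 0.20, edgeR adjusted p 8.3e-06). Clec1a, another C-type lectin-like receptor, was at 4.07 to 4.73 and 14.5 to 19.4 CPM (1.97 ± 0.13, edgeR adjusted p 8.3e-06). Both lectins were thus apart between the ages. Esrrg, an orphan nuclear receptor, was at 0.289 to 1.04 CPM in young and 8.86 to 13.7 CPM in old libraries (3.86 ± 0.27, edgeR adjusted p 1.33e-05). Enpp5 (2.72 ± 0.21), the myosin gene Myo1d (2.40 ± 0.20) and Rbms3, an RNA-binding protein gene (1.64 ± 0.13), did not overlap either, at edgeR adjusted p of 2.69e-05, 4.11e-05 and 2.37e-05. Rasef, a small GTPase gene, was at 0 to 0.718 and 11.1 to 36 CPM (5.93 ± 0.51, edgeR adjusted p 4.26e-05), a fold that rests on few young counts. Of these genes Rbms3 was not called with all 24 libraries.

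Part of the MHC class II antigen presentation list, whose products display peptides to CD4 T cells, rose in old cells. Of 15 tested members 6 were called higher, none lower and 9 not called. The 6 were the class II chains H2-Aa, H2-Ab1 and H2-Eb1, the invariant chain Cd74, the peptide-exchange subunit H2-DMb1 and Ciita, the transcriptional activator of the pathway. H2-Aa (ENSMUSG00000036594, chromosome 17, 34282744 to 34287823, minus strand) was at 257, 275, 252 and 286 CPM in the young and 1064, 741, 921 and 629 CPM in the old libraries. The young libraries lay close together and the old ones were spread, all of them above the young, at 1.65 ± 0.14 (edgeR adjusted p 3.18e-05). H2-Ab1 was at 302 to 370.3 CPM in young and 712 to 1275 CPM in old libraries (1.62 ± 0.15, edgeR adjusted p 6.21e-05), and Cd74 at 1090 to 1192 and 2585 to 4313 CPM (1.52 ± 0.13, edgeR adjusted p 4.47e-05). Ciita rose from 12.3 ± 1.7 to 35.2 ± 7.3 CPM (mean ± SD, n = 4; 1.52 ± 0.15, edgeR adjusted p 0.000136). The number of called members was 6 with 22 and with 24 libraries (where 0.869% of genes were called higher) and when any 1 of the 8 libraries was left out.
The rest of the list did not pass the test, among them the costimulatory ligands Cd86 (-0.04) and Cd80 (-0.25) and the lysosomal proteins Ctss (0.01) and Ifi30 (0.04). The list median was 0.35, beside -0.0024 over all genes tested, and its sum was 6579 to 8336 CPM in young and 9713 to 13850 CPM in old libraries. Dendritic cells and B cells also carry class II. Of 8 tested dendritic cell markers none was called, and their median was -0.38, with 2 above and 6 below 0. All 10 listed summed to 24.9 to 40.2 CPM in young and 31.5 to 36.5 CPM in old libraries. Flt3 was at 1.06 to 2.83 CPM and Xcr1 at 0.236 to 0.878 CPM over the 8 libraries. Zbtb46 was at 1.08 to 1.74 CPM in young and 1.57 to 3.83 CPM in old libraries (0.94 ± 0.32, edgeR adjusted p 0.108). Clec9a was at 6.47 to 8.62 and 6.94 to 12.85 CPM. Of 17 tested B and plasma cell markers 4 were called higher, the antibody genes Ighm and Igkc and the plasma cell genes Jchain and Mzb1, and all 18 listed summed to 274 to 307 CPM in young and 353 to 512 CPM in old libraries. The B cell genes Cd79a (0.24 ± 0.28) and Ms4a1 (-0.10 ± 0.23) were not called (edgeR adjusted p 0.694 and 0.867) and stood at 6.49 CPM or less in each library. The part of such cells in the class II result was not tested.

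Irf4, a transcription factor of alternatively activated macrophages and of lymphocytes (ENSMUSG00000021356, chromosome 13, 30749226 to 30766976, plus strand), had the greatest rise of 28 tested macrophage transcription factors. It was at 12.6, 13.7, 13.1 and 7.43 CPM in the young and 41.9, 39.8, 29.8 and 41.1 CPM in the old libraries. The groups did not overlap, and young replicate 4 lay below the other young libraries (1.71 ± 0.17, edgeR adjusted p 0.000136). Batf3 (1.10 ± 0.19), Irf5 (0.52 ± 0.10) and Klf4 (0.51 ± 0.10) rose too, at edgeR adjusted p of 0.00463, 0.00816 and 0.00962. Irf4 and Klf4 were called with all 24 libraries, and Batf3 and Irf5 were not. Klf4 is also in the list of immediate early genes, described further on. In all, 7 of the list were called higher and 1 lower, at a median of 0.07, and 2 higher and 0 lower with all 24 libraries. The call of Id2 was lost without any 1 of 6 libraries (edgeR adjusted p up to 0.105). Bhlhe40 lost its call without any 1 of 4 libraries (edgeR adjusted p up to 0.0878), and Egr2 without young replicate 2 (edgeR adjusted p 0.0579). Pparg, which defines the resident alveolar lineage (-0.32 ± 0.10, edgeR adjusted p 0.0756), and Spi1 (-0.08), needed by all macrophages, were not called.

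**Figure D2:**
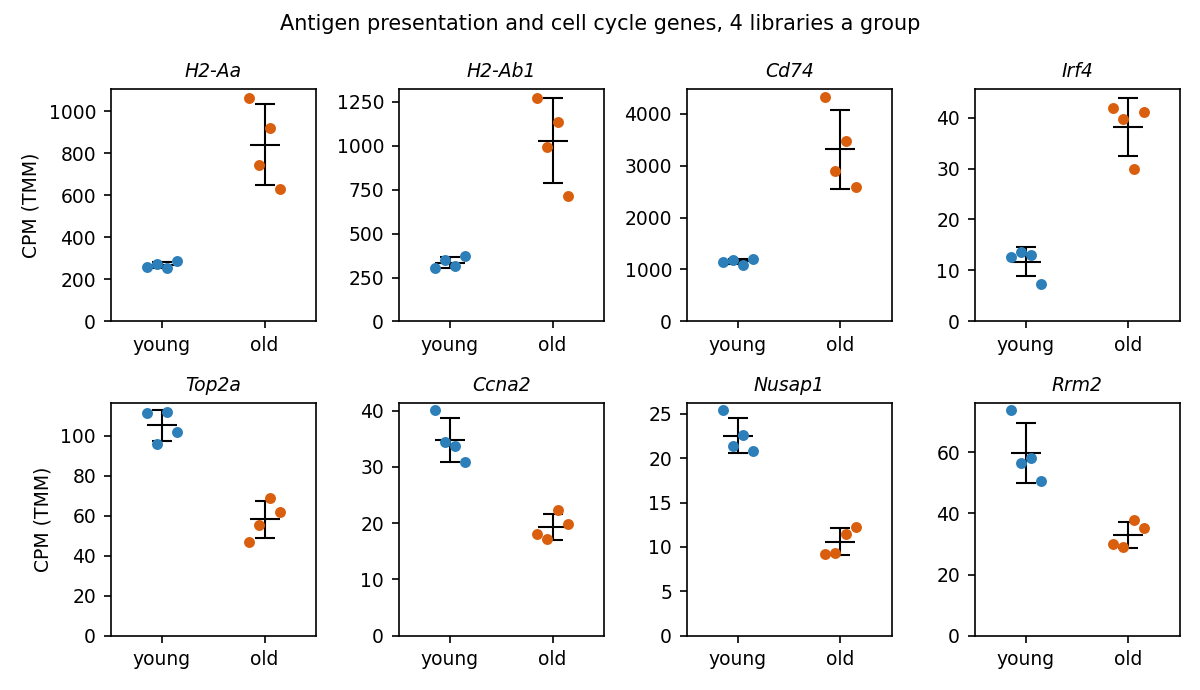
TMM-scaled CPM (y axis, from 0) of H2-Aa, H2-Ab1, Cd74, Irf4, Top2a, Ccna2, Nusap1 and Rrm2 in the 4 young and 4 old asbestos Siglec F-low libraries; each point is 1 library, and the bar and whiskers are the mean and SD. The first 4 genes are higher, and the last 4 lower, in every old library than in any young one.

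Cell division genes fell. Of 57 tested mitosis genes, which build the spindle, condense and separate chromosomes or drive the entry into mitosis, 45 were called lower in old cells and none higher. The log2 fold change of all 57 was below 0, from -1.35 to -0.20 with a median of -0.74, and the CPM of 48 did not overlap between the ages. Nusap1, a spindle protein that bundles microtubules (ENSMUSG00000027306, chromosome 2, 119618298 to 119651244, plus strand), was at 25.4, 21.4, 22.6 and 20.9 CPM in the young and 9.26, 9.32, 11.5 and 12.3 CPM in the old libraries. All old libraries were well under all young ones (-1.09 ± 0.12, edgeR adjusted p 0.000271). Top2a, the topoisomerase that untangles sister chromatids (ENSMUSG00000020914, chromosome 11, 98992943 to 99024189, minus strand), was at 111, 95.8, 112 and 102 CPM in young and 46.8, 55.6, 68.6 and 62 CPM in old libraries (-0.85 ± 0.11, edgeR adjusted p 0.000527). Ccna2, cyclin A2, was at 30.8 to 40.2 and 17.1 to 22.3 CPM (-0.85 ± 0.11, edgeR adjusted p 0.000622), and the kinesin Kif15 at 14.3 to 18.9 and 7.49 to 9.94 CPM (-0.99 ± 0.13, edgeR adjusted p 0.000757). None of these 4 overlapped between the ages. The proliferation marker Mki67 fell from 154 ± 12.4 to 88.6 ± 16.5 CPM (mean ± SD, n = 4; -0.79 ± 0.12, edgeR adjusted p 0.00166) and Cdk1, the kinase of mitotic entry, from 29.7 ± 6.33 to 16.1 ± 3.22 CPM (-0.89 ± 0.16, edgeR adjusted p 0.00626), and these 2 were not called with all 24 libraries. The summed level of the list was 1336 to 1537 CPM in young and 783 to 1041 CPM in old libraries. With all 24 libraries 20 members were called lower, beside 0.423% of all genes, at a median of -0.75.
Of 55 tested genes of DNA replication and S phase, 22 were called lower, none higher and 33 not called, with a median of -0.42. Rrm2, a subunit of ribonucleotide reductase (ENSMUSG00000020649, chromosome 12, 24708241 to 24714146, plus strand), was at 73.8, 56.4, 58.1 and 50.7 CPM in young and 29.9, 29.2, 37.8 and 35.2 CPM in old libraries. Its ranges were apart (-0.86 ± 0.12, edgeR adjusted p 0.00128). Pola1, of DNA polymerase alpha, fell by 0.69 ± 0.10 and the helicase subunit Mcm3 by 0.45 ± 0.07 on the log2 scale (edgeR adjusted p 0.00166 and 0.00187), and neither was called with all 24 libraries. Lower calls in this list numbered 12 without old replicate 1, 12 without young replicate 1, 14 without old replicate 4 and 3 with all 24 libraries. In bulk RNA, fewer cells of a type and less RNA per cell cannot be told apart.

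Promoter windows from 220 bases before to 30 after the annotated start are shown for the 4 called mitosis genes of smallest p with an entry in the RefSeq promoter table (GRCm38.p6), since genes of this list moved together. Capitals mark TTTGAA, the core of the cell cycle genes homology region, and CCAAT, the box bound by NF-Y, on either strand, both known from promoters of mitotic genes. The windows, 5′ to 3′ on the strand of the gene, were chr2:119618078-119618327 (plus) for Nusap1, chr11:99024160-99024409 (minus) for Top2a, chr9:122950861-122951110 (plus) for Kif15 and chr7:80294231-80294480 (plus) for Prc1.
Nusap1: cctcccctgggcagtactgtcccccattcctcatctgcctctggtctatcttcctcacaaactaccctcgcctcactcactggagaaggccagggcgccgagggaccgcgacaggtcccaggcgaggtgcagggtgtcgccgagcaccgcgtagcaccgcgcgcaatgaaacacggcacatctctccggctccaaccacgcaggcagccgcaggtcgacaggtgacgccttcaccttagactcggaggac
Top2a: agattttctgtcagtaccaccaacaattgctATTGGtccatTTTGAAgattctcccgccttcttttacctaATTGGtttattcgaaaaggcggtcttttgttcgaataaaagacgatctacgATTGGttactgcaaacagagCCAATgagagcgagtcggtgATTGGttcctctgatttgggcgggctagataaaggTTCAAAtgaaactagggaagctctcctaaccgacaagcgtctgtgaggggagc
Kif15: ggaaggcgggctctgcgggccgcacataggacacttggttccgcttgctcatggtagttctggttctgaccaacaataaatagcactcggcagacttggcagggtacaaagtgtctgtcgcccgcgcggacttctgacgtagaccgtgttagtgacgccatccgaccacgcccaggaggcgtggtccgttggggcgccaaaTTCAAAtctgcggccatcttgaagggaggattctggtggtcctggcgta
Prc1: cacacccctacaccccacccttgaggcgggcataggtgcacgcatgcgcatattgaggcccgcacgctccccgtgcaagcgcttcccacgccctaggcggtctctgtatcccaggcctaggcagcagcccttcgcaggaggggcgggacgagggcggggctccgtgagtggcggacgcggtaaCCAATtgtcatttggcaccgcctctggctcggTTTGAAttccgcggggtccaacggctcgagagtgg
Top2a held 5 CCAAT and 2 TTTGAA matches, Prc1 1 of each, Kif15 1 TTTGAA match and Nusap1 neither. Among the 37 called mitosis genes with an entry, 26 (70.3%) held TTTGAA and 28 (75.7%) CCAAT in this window, beside 15.3% and 34% of all 27025 promoters in the table. Among 21 called replication genes with an entry the shares were 19% and 76.2%. CCAAT was not particular to the lists that fell. Of called genes that rose, 9 of 9 of cholesterol and fatty acid synthesis and 3 of 3 of class II with an entry held it. TTTGAA was in 0 of these. Mitosis genes that were not called were not searched as a set, so these shares do not tell the called ones from the rest of the list. A match is a string of letters and not a measured binding site.
Of the called class II genes, H2-Aa (chr17:34287794-34288043, minus) and H2-Eb1 (chr17:34305647-34305896, plus), chosen after their values were seen, are shown for the same letters, as the genes that moved together in the other direction.
H2-Aa: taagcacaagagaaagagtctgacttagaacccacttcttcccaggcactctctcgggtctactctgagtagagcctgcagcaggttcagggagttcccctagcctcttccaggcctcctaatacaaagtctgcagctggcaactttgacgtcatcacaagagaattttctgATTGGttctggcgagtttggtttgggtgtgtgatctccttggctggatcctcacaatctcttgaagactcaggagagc
H2-Eb1: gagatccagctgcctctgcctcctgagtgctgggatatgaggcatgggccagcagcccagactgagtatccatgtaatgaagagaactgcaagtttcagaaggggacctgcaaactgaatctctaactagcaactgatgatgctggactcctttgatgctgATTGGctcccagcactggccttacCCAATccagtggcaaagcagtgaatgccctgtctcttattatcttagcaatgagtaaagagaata
H2-Aa held 1 and H2-Eb1 2 CCAAT matches, and neither held TTTGAA.

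Other genes that fell belong to varied functions. Lrrc75a was at 7.77 to 8.89 CPM in young and 2.89 to 3.5 CPM in old libraries (-1.39 ± 0.15, edgeR adjusted p 0.000213). Lrp5, a Wnt co-receptor, was at 19.8 to 22.5 and 10.3 to 12.9 CPM (-0.91 ± 0.10, edgeR adjusted p 0.00035), and Pltp, the phospholipid transfer protein, at 198 to 221 and 114 to 144 CPM (-0.69 ± 0.09, edgeR adjusted p 0.000527). The tight junction gene Cldn1 (-1.19 ± 0.16), the sodium-proton exchanger gene Slc9a4 (-0.52 ± 0.07), the polarity gene Patj (-0.66 ± 0.09) and Ide, the insulin-degrading enzyme (-0.55 ± 0.07), fell as well, at edgeR adjusted p of 0.000965, 0.000587, 0.000745 and 0.000715. None of these 7 genes overlapped between the ages. Lrp5, Pltp, Patj and Ide were not called with all 24 libraries.

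Some identity markers of the sort changed with age. Siglecf itself (ENSMUSG00000039013, chromosome 7, 43351341 to 43359531, plus strand) was at 295, 251, 239 and 283 CPM in young and 225, 149.9, 162 and 168 CPM in old libraries. Each old library was below each young one (-0.60 ± 0.12, edgeR adjusted p 0.00931). Siglec F was the gate of this sort, so its transcript is not independent of how the cells were chosen at each age. Of 24 markers of resident alveolar macrophages, 3 were called lower and 2 higher, at a median of -0.04. Beside Siglecf, the cytokine gene Il18 fell (-0.44 ± 0.09, edgeR adjusted p 0.014), as did Plet1, a call that was lost without any 1 of 5 libraries (edgeR adjusted p up to 0.083). The amino acid transporter Slc7a2 (0.34 ± 0.07, edgeR adjusted p 0.0122) and the chitinase-like Chil3 rose, the latter with means of 37060 ± 5741 and 54720 ± 5904 CPM (0.56 ± 0.12, edgeR adjusted p 0.0143, and 0.0513 without old replicate 1). Of these 5 genes Siglecf alone was called with all 24 libraries. Car4 (-0.02 ± 0.12) and Marco (-0.42 ± 0.24) were not called.
Of 22 markers of monocytes and early macrophages 10 were called higher and none lower, with a median of 0.44. Itgam was at 41.3, 31.6, 47.2 and 45.6 CPM in young and 76.7, 64.5, 73 and 111 CPM in old libraries (0.97 ± 0.16, edgeR adjusted p 0.00352). Plac8 was at 1.04 to 2.71 and 5.66 to 11.7 CPM (1.99 ± 0.29, edgeR adjusted p 0.00162), and Ccr2, the chemokine receptor that guides monocytes into tissue, at 9.18 to 16.8 and 18.6 to 23.6 CPM (0.73 ± 0.15, edgeR adjusted p 0.0135). All 3 were higher in every old library than in any young one. Cx3cr1 (0.86 ± 0.26, edgeR adjusted p 0.0667) and Cd14 (0.16) were not called. The list had 11 higher calls with 22 libraries and 1, Itgam, with all 24.
The complement genes C1qa (0.53 ± 0.11) and C1qb (0.67 ± 0.09), whose products belong to the recognition unit of the classical pathway, rose (edgeR adjusted p 0.0112 and 0.00127), as did C4b, at 12.1 to 24.1 CPM in young and 34.7 to 78.3 CPM in old libraries (1.71 ± 0.24, edgeR adjusted p 0.00116). C4b was called with all 24 libraries, and C1qa and C1qb were not. Of 18 tested complement genes 6 were called higher and none lower, at a median of 0.43. The 2 lists share genes: C1qa, C1qb, C1qc and Itgam are also among the monocyte and early macrophage markers. C1qc (0.70 ± 0.16, edgeR adjusted p 0.0186) lost its call without young replicate 2 or young replicate 3 (edgeR adjusted p up to 0.0587) and with all 24 libraries. The call of C3ar1 was lost without any 1 of 7 libraries (edgeR adjusted p up to 0.131).

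Genes linked to fibrosis did not move as 1 group. Of 17 tested genes of scar-associated macrophages 3 were called higher and none lower, with a median of 0.05. Arg1, arginase 1, which makes ornithine for polyamine and proline synthesis (ENSMUSG00000019987, chromosome 10, 24915221 to 24927484, minus strand), was at 137, 214, 133 and 132 CPM in young and 339, 401, 539 and 477 CPM in old libraries. The groups did not overlap, though young replicate 2 lay above the other young libraries (1.51 ± 0.17, edgeR adjusted p 0.000332). Mmp12, macrophage elastase (ENSMUSG00000049723, chromosome 9, 7344381 to 7369499, plus strand), was at 671, 574, 587 and 535 CPM in young and 1723, 1088, 978 and 1531 CPM in old libraries (1.17 ± 0.16, edgeR adjusted p 0.000854). It was not called when Siglec F-high libraries shared the fit, with 22 or with 24 libraries. Mmp14 was the other gene (0.69 ± 0.18, edgeR adjusted p 0.0424), and its call was lost without each of 5 libraries in turn (edgeR adjusted p without old replicate 1 0.0729, old replicate 4 0.0936, young replicate 1 0.0966, young replicate 2 0.105, young replicate 4 0.0685) and with all 24 libraries (edgeR adjusted p 0.449).
Other defining genes of that list were not called. Spp1, osteopontin, was at 3437, 4822, 2476 and 2942 CPM in young and 2801, 3369, 3220 and 2488 CPM in old libraries (-0.20 ± 0.17, edgeR adjusted p 0.558). Gpnmb was at 1849 to 1980 and 1067 to 2255 CPM (-0.26 ± 0.16, edgeR adjusted p 0.412), Trem2 at 184 to 222 and 191 to 264 CPM (0.24 ± 0.10, edgeR adjusted p 0.174) and Apoe at 234 to 379 and 245 to 357 CPM (-0.02 ± 0.15, edgeR adjusted p 0.954). The ranges of all 4 overlapped between the ages.

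**Figure D3:**
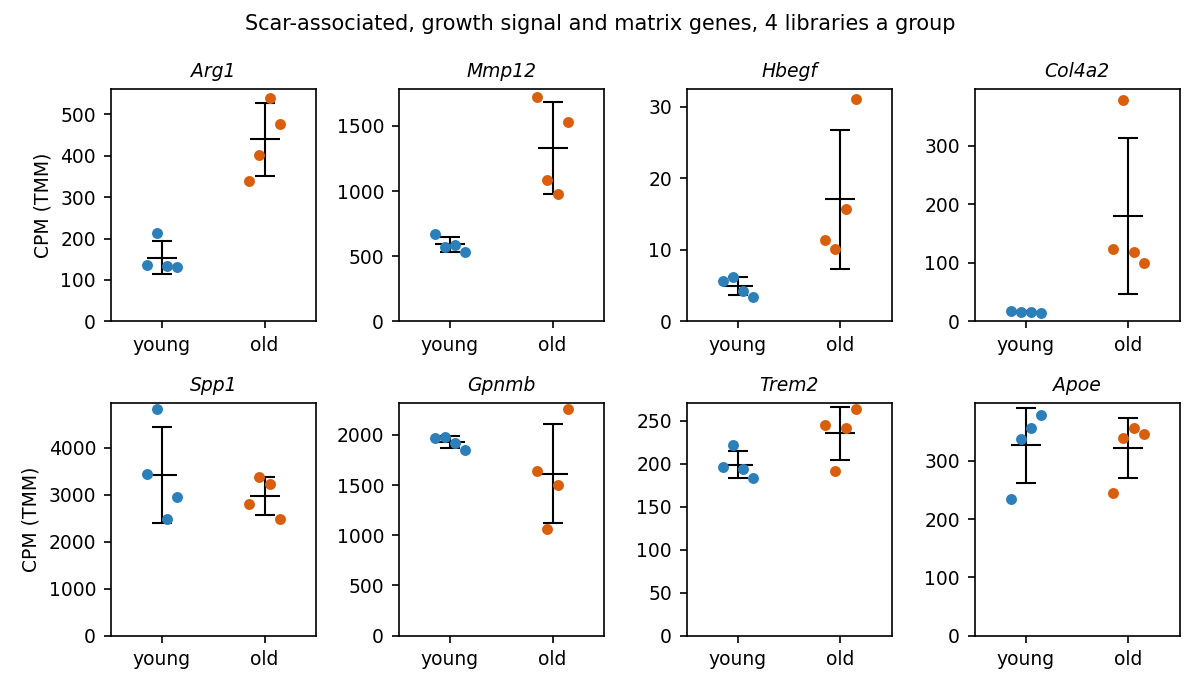
TMM-scaled CPM (y axis, from 0) of 8 genes linked to lung fibrosis in the 4 young and 4 old asbestos Siglec F-low libraries; each point is 1 library, and the bar and whiskers are the mean and SD. Arg1, Mmp12, Hbegf and Col4a2 do not overlap between the ages, Col4a2 with 1 old library at 379 CPM, while Spp1, Gpnmb, Trem2 and Apoe overlap.

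Of 18 tested signals to fibroblasts 5 were called higher and none lower, with a median of 0.42. Hbegf, a ligand of the epidermal growth factor receptor, was at 5.6, 6.24, 4.31 and 3.46 CPM in young and 11.4, 10.1, 15.7 and 31.1 CPM in old libraries. The old libraries were all above the young, with old replicate 4 the highest (1.80 ± 0.33, edgeR adjusted p 0.00649). Ereg, another such ligand (1.05 ± 0.21), and the chemokine Ccl2 (0.69 ± 0.13) rose as well, at edgeR adjusted p of 0.0103 and 0.00868. Il1b (1.03 ± 0.28, edgeR adjusted p 0.0463) lost its call without any 1 of 6 libraries (edgeR adjusted p up to 0.123). Vegfa (1.26 ± 0.31, edgeR adjusted p 0.0316) lost it without each of 4 libraries (edgeR adjusted p without old replicate 4 0.053, young replicate 1 0.055, young replicate 2 0.103, young replicate 4 0.0787). None of the 5 was called with all 24 libraries, and the count was 3 without old replicate 4, without young replicate 2 or without young replicate 4. Pdgfa, a chain of platelet-derived growth factor, was at 5.7 to 9.87 and 6.28 to 11.2 CPM (0.09 ± 0.20, edgeR adjusted p 0.862). Tgfb1, at 391 to 437 and 458 to 489.5 CPM, was not called (0.20 ± 0.06, edgeR adjusted p 0.0807).

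Of 15 tested matrix and basement membrane genes 8 were called higher and 1 lower, at a median of 0.51. Col4a2, a chain of type IV collagen (ENSMUSG00000031503, chromosome 8, 11312805 to 11449287, plus strand), was at 17.8, 16.2, 15.8 and 14.5 CPM in young and 124, 379, 119 and 100.4 CPM in old libraries. Old replicate 2 was far above the other old libraries, which were in turn all above the young (3.49 ± 0.38, edgeR adjusted p 0.000271). Without that library the log2 fold change was 2.83 (edgeR adjusted p 1.87e-08). Col4a1, the partner chain, was at 13.4, 14.1, 16.8 and 14.5 CPM in young and 93.7, 395, 92.5 and 79.5 CPM in old libraries (3.49 ± 0.48, edgeR adjusted p 0.00105, and 2.59 and 2.79e-08 without old replicate 2). Ecm1, a secreted matrix glycoprotein (ENSMUSG00000028108, chromosome 3, 95734147 to 95739569, minus strand), was at 94, 96.7, 102 and 113 CPM in young and 201, 192, 209.7 and 221 CPM in old libraries (1.02 ± 0.08, edgeR adjusted p 1.92e-05). These 3 and Col14a1 (1.15 ± 0.21, edgeR adjusted p 0.00683) were the members called with all 24 libraries. Fibronectin, Fn1, had a mean of 3443 ± 289 CPM in young and 4908 ± 697 CPM in old libraries (0.51 ± 0.10, edgeR adjusted p 0.0105) and was called with neither 22 nor 24 libraries. The 6 fibroblast markers Col1a1, Col1a2, Col3a1, Pdgfra, Dcn and Lum summed to 1.5 to 10.5 CPM in young and 2.84 to 8.85 CPM in old libraries, and none of the 4 tested was called.
Among 15 tested metalloproteinases and inhibitors 5 were called higher and 1 lower, at a median of 0.66. Mmp12, counted above with the scar-associated genes, is in this list too. Adam8, a membrane protease of leukocytes, was at 32.3 to 48.5 CPM in young and 75.7 to 99.6 CPM in old libraries (1.03 ± 0.12, edgeR adjusted p 0.00043). Timp1, an inhibitor of metalloproteinases, was at 4.25 to 6.48 and 9.38 to 15 CPM (1.08 ± 0.18, edgeR adjusted p 0.00373), and Mmp13 rose by 1.87 ± 0.39 (edgeR adjusted p 0.0128). Neither Timp1 nor Mmp13 was called with all 24 libraries. The gene called lower was Mmp8 (-0.31 ± 0.09, edgeR adjusted p 0.0498), which lost its call without each of 6 libraries (edgeR adjusted p without old replicate 1 0.111, old replicate 2 0.0901, old replicate 4 0.114, young replicate 2 0.0656, young replicate 3 0.111, young replicate 4 0.126) and with 22 and with 24 libraries (edgeR adjusted p 0.888 with 24).

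Of 27 tested chemokines and cytokines 6 were called higher and 1, Il18, lower, with a median of 0.52. The neutrophil-attracting Cxcl2 was at 107, 119, 119.9 and 100.3 CPM in young and 171, 172, 179 and 170.4 CPM in old libraries, a narrow and complete separation (0.63 ± 0.07, edgeR adjusted p 0.000334). Its relative Cxcl3 was at 4.66, 6.41, 3.77 and 3.69 CPM in young and 24.8, 20.9, 6.26 and 25.8 CPM in old libraries, which overlapped (2.07 ± 0.35, edgeR adjusted p 0.0044). Ccl2, the ligand of Ccr2, was at 8.71 to 10.7 and 13.5 to 19.2 CPM and was counted among the signals to fibroblasts as well. None of the 7 was called with all 24 libraries.

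Of 27 tested genes of cholesterol and fatty acid synthesis 13 were called higher, none lower and 14 not called, with a median of 0.26. Hsd17b7, a late enzyme of the sterol pathway, was at 26.8, 22.1, 24.4 and 25.1 CPM in young and 38.8, 36.6, 43.6 and 39.6 CPM in old libraries. Its ranges were apart (0.69 ± 0.09, edgeR adjusted p 0.000587). Sqle, squalene epoxidase, was at 74.9 to 80.3 and 96.7 to 119 CPM (0.52 ± 0.07, edgeR adjusted p 0.00152). Insig1, which restrains the pathway, rose as well (0.53 ± 0.09, edgeR adjusted p 0.00428). The fatty acid genes Fasn (0.20) and Scd1 (-0.59) were not called. With all 24 libraries 2 members were called, Hsd17b7 and Sqle. Abca1, which exports cholesterol from macrophages, was at 179, 153, 207 and 237 CPM in young and 126, 102, 98.7 and 113 CPM in old libraries. It moved the other way (-0.82 ± 0.12, edgeR adjusted p 0.00195) and was not called with all 24 libraries. Plin4, a lipid droplet coat gene, was at 0.81, 0.173, 0.479 and 0.403 CPM in young and 9.44, 103, 3.61 and 6.12 CPM in old libraries (6.04 ± 1.22, edgeR adjusted p 0.011, and 3.79 without old replicate 2), and was not called by DESeq2 or limma voom.
Iron handling changed at 3 of 12 tested genes. Slc40a1, ferroportin, the exporter of iron, was at 8.71, 8.32, 10 and 8.35 CPM in young and 2.95, 1.85, 2.52 and 6.36 CPM in old libraries (-1.36 ± 0.29, edgeR adjusted p 0.0145). Tfrc, the transferrin receptor, was at 42, 40, 38.9 and 35 and 52.6, 57.5, 97.4 and 135 CPM (1.14 ± 0.24, edgeR adjusted p 0.0136). The exporter was lower and the receptor higher in every old library. Slc11a1, a phagosomal metal transporter, rose by 0.77 ± 0.13 (edgeR adjusted p 0.00463) and was not called with all 24 libraries.

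Of 21 tested cytosolic and mitochondrial heat shock genes 7 were called lower, none higher and 14 not called, with a median of -0.22. Fkbp4, a partner of the chaperone HSP90, was at 118, 124, 116 and 112 CPM in young and 87.2, 92.5, 90.3 and 86.9 CPM in old libraries (-0.40 ± 0.06, edgeR adjusted p 0.0026). Chordc1 (-0.44 ± 0.07) and Hsph1 (-0.63 ± 0.11) fell as well, at edgeR adjusted p of 0.00304 and 0.0039. Lower calls numbered 4 without old replicate 1, 2 or 3 or young replicate 1, 2 or 3, and 0 with all 24 libraries. Of 22 tested endoplasmic reticulum chaperones and unfolded protein response genes 6 were called lower, among them Sdf2l1 (-0.40 ± 0.09, edgeR adjusted p 0.0158), and 1 higher, with a median of -0.22. The 6 became 1 without old replicate 2, young replicate 1 or young replicate 2, 2 without old replicate 1, 3 without old replicate 3 and 0 with all 24 libraries. The chaperone Hspa5 was at 1667 to 2082 CPM in young and 1324 to 1744 CPM in old libraries and was not called (-0.29 ± 0.09, edgeR adjusted p 0.0976).
In the integrated stress response, phosphorylation of the initiation factor eIF2 lowers translation and favours that of ATF4. Of 33 tested genes of this pathway 2 were called higher, Atf5 (0.59 ± 0.09, edgeR adjusted p 0.00219) and the amino acid transporter Slc7a5 (0.58 ± 0.12, edgeR adjusted p 0.0116), and none lower, a share of 6.06% beside the 6.4% of all genes. Neither was called with all 24 libraries. Atf4 was at 156 to 203 CPM in young and 195 to 208 CPM in old libraries (0.20 ± 0.08, edgeR adjusted p 0.184), and Ddit3, which encodes CHOP, at 11.3 to 14.9 and 12.2 to 21.3 CPM (0.22 ± 0.16, edgeR adjusted p 0.494). Phosphorylation is not measured by these counts. Of 46 proteasome genes (median -0.03), 38 oxidative phosphorylation subunits (median 0.00062) and 20 antioxidant genes (median -0.07), 0 were called by edgeR with the 8 libraries.

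Of 18 tested cell cycle inhibitors and senescence genes 4 were called higher and 2 lower, with a median of -0.02. Cdkn2a, the locus of p16 and p19Arf, was at 7.23, 7.45, 6.11 and 4.09 CPM in young and 20, 16.1, 10.7 and 12.9 CPM in old libraries. The old libraries were all above the young (1.27 ± 0.22, edgeR adjusted p 0.00428). Its neighbour Cdkn2b, which encodes p15, was at 1.44 to 3.04 and 4.32 to 7.14 CPM (1.41 ± 0.25, edgeR adjusted p 0.00491). Lmnb1, lamin B1, fell (-0.49 ± 0.11, edgeR adjusted p 0.0177). Cdkn1a, which encodes p21, was at 357 to 442 and 389 to 445 CPM and was not called (0.05 ± 0.08, edgeR adjusted p 0.773). None of the list was called with all 24 libraries.

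Several antibody transcripts were higher in old libraries. Igkc was at 9.59, 16.8, 17.4 and 20.6 CPM in young and 48.4, 62.7, 70.6 and 33.1 CPM in old libraries (1.73 ± 0.24, edgeR adjusted p 0.00106). Ighm was at 14.2 to 35.7 and 47.2 to 131 CPM (1.63 ± 0.30, edgeR adjusted p 0.00683), and Jchain at 1.16 to 6.05 and 8.2 to 19.7 CPM (2.3 ± 0.45, edgeR adjusted p 0.00911, 2.99 without young replicate 4, and not called with all 24 libraries). All 3 separated the ages without overlap, and so did the sum over 255 annotated immunoglobulin segments, at 69.0 to 123 CPM in young and 159 to 378 CPM in old libraries. Igha was not called (1.77 ± 0.71, edgeR adjusted p 0.177), and the call of Mzb1 (1.63 ± 0.40, edgeR adjusted p 0.0287) was lost without any 1 of 4 libraries and with all 24. No marker of T and NK cells was called by edgeR of 11 tested, and all 14 listed summed to 12.4 to 32.1 CPM in young and 14.9 to 23.5 CPM in old libraries. Of 6 tested neutrophil markers S100a9 was called higher, at 0.473 to 1.21 CPM in young and 1.43 to 2.35 CPM in old libraries (1.36 ± 0.35, edgeR adjusted p 0.0386), a call lost without any 1 of 7 libraries and with 22 or 24, and Mmp8 was called lower. All 10 listed summed to 94.2 to 97.9 CPM in young and 85.2 to 110 CPM in old libraries. Retnlg was not called (1.06 ± 0.35, edgeR adjusted p 0.098), Ngp held 1 count in the young and 21 in the old libraries together, and Ly6g 0 and 2. None of 3 tested eosinophil and mast cell markers was called by edgeR, and all 9 listed summed to 43.9 to 63.1 CPM in young and 18.4 to 55.3 CPM in old libraries, most of it Ear6 (-0.78 ± 0.32, edgeR adjusted p 0.19). Among that list Prg2 held 9 counts in the young and 71 in the old libraries together, Ccr3 92 and 159, and Epx 0 and 1. Of 8 tested epithelial markers Cdh1 was called higher and none lower, with 6 below 0 and a median of -0.65. The call of Cdh1 (0.53 ± 0.14, edgeR adjusted p 0.0421) was lost without any 1 of 6 libraries. All 10 listed summed to 173 to 251 CPM in young and 247 to 339 CPM in old libraries, of which Cdh1 made up 123 to 198 and 196 to 286 CPM. The surfactant gene Sftpc was at 7 to 38.2 and 3.77 to 8.58 CPM. The part of these cells in the other results was not tested.

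In the asbestos and naive Siglec F-high sorts 7.32% and 8.03% of genes were called between the ages. Most age differences of the Siglec F-low sort had the same direction in the Siglec F-high sorts. The asbestos sorts are not independent of each other, since their libraries of the same age and number deviated together (correlations of 0.104 to 0.31 in 6 pairs), and all sorts shared the 22-library fit. Of the 456 genes called higher in Siglec F-low cells, 431 (94.5%) had a positive age difference in asbestos Siglec F-high cells and 411 (90.1%) in naive Siglec F-high cells, beside 51.3% and 49.8% of all genes. Of the 456, 257 (56.4%) and 207 (45.4%) were called higher there, where 4.84% and 5.11% of genes were. The shared genes were 38.9% of the 660 and 29.7% of the 697 genes called higher in those sorts. Of the 342 genes called lower, 155 (45.3%) and 122 (35.7%) were called lower in asbestos and naive Siglec F-high cells, where 2.47% and 2.91% of genes were, and 2 were called the opposite way in naive cells. They were 46.0% of 337 and 30.7% of 397 lower calls. As a description, the log2 fold changes across 12463 genes correlated with those of the other sorts at Pearson r of 0.68 and 0.57, and genes are not independent replicates.
The lists were read in the same way, from the 22-library fit. Mitosis genes were called lower for 35 of 57 (median -0.61) in asbestos and 28 of 57 (median -0.51) in naive Siglec F-high cells, with none higher in either. MHC class II genes were called higher for 7 of 15 in each, and monocyte markers for 6 and 2 of 22. The age differences of Pla2g2d were 5.36 and 6.04, those of H2-Aa 1.85 and 2.31, and those of Arg1 1.49 and 0.24 on the log2 scale in asbestos and naive Siglec F-high cells. The Pla2g2d values start from low young levels, 0.633 to 1.58 CPM in asbestos and 0.258 to 0.747 CPM in naive Siglec F-high cells. Its old means there were 44.8 and 30.6 CPM, beside 55.8 CPM in old Siglec F-low cells (22-library scale). Arg1 was near the floor in naive cells, at 0.436 to 0.747 CPM in young and 0.497 to 1.01 CPM in old libraries.

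**Figure D4:**
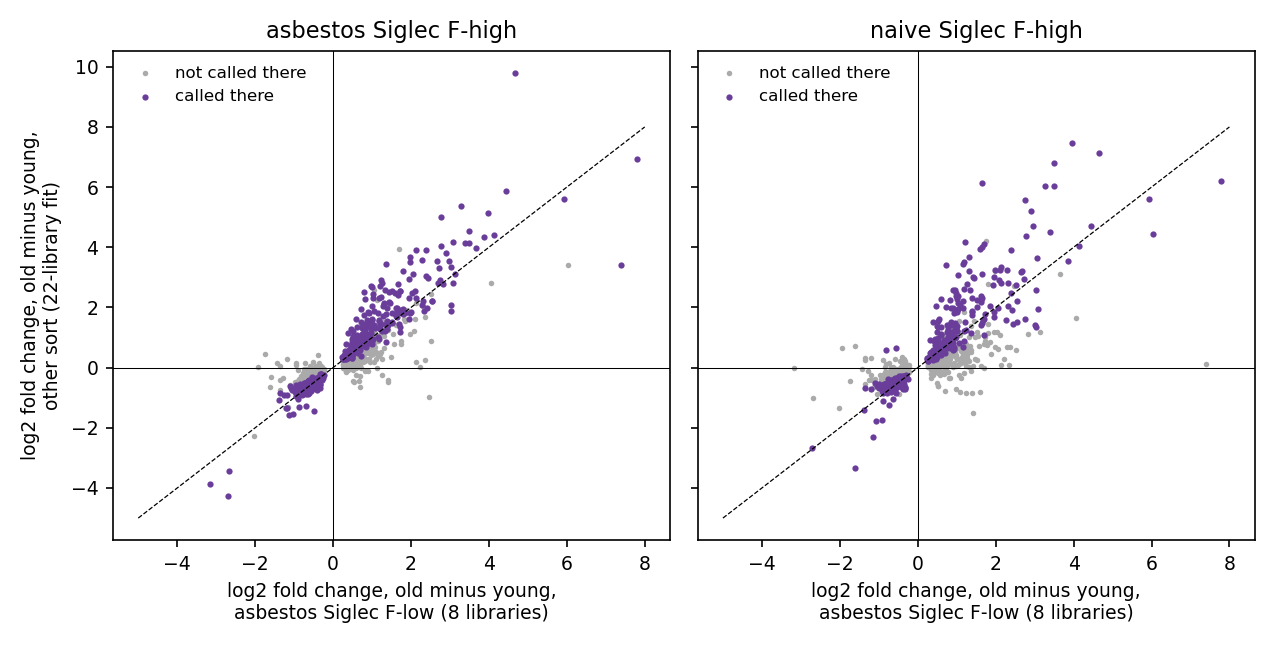
Age differences (log2 fold change, old minus young) of the genes called in asbestos Siglec F-low libraries, on the x axis, against those in asbestos Siglec F-high and in naive Siglec F-high libraries, on the y axes; each point is 1 gene, purple where it was called in that sort, and the dashed line marks equal values. Of the genes higher in old Siglec F-low cells, 94.5% lie above 0 for asbestos and 90.1% for naive Siglec F-high cells.

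Whether the age difference itself differed in Siglec F-low cells was tested with interaction terms in the 22-library fit, which did not pair libraries. Against asbestos Siglec F-high cells 2 genes of 13629 were called (0.0147%), with 870 at an unadjusted p under 0.05. Ecm1 rose by 1.02 ± 0.11 in Siglec F-low and 2.3 ± 0.14 in asbestos Siglec F-high cells, a difference of -1.29 ± 0.18 on the log2 scale (edgeR adjusted p 0.00385). Cpeb1, a regulator of mRNA polyadenylation (ENSMUSG00000025586, chromosome 7, 81347026 to 81455465, minus strand), rose by 0.98 ± 0.16 and 2.72 ± 0.21 (difference -1.74 ± 0.27, edgeR adjusted p 0.00945). The rise was the smaller in Siglec F-low cells for both. With all 24 libraries 0 genes were called, with 650 at an unadjusted p under 0.05, and both had an edgeR adjusted p of 0.202. With a replicate block that treats asbestos libraries of the same age and number as 1 source, which the deviations and not the labels give, fitted on the 14 asbestos libraries alone, 171 of 13185 genes were called, 49 with a more positive and 122 with a more negative age difference in Siglec F-low cells, Ecm1 and Cpeb1 among them. A replicate block by number over all sorts gave 14. DESeq2 called 29 and limma voom 15, and without old replicate 1 the edgeR count was 4.
Against naive Siglec F-high cells, which differ in asbestos as well as in sort, 74 genes were called (0.543%), 18 more positive (0.132%) and 56 more negative (0.411%) in Siglec F-low cells. The count was 46 without old replicate 3, 49 without young replicate 1, 48 without young replicate 2 and 1 (0.00743%) with all 24 libraries. Irf4 rose by 1.70 ± 0.17 in Siglec F-low and 1.17 ± 0.20 in asbestos Siglec F-high cells, and stood at -0.01 ± 0.18 in naive Siglec F-high cells (difference from naive 1.71 ± 0.24, edgeR adjusted p 0.000997). Cish, a feedback inhibitor of cytokine signalling, rose by 0.82 ± 0.14 in Siglec F-low cells and stood at -0.36 ± 0.14 in naive ones (difference 1.19 ± 0.20, edgeR adjusted p 0.00444). The differences of Slc7a1 (0.79 ± 0.15) and Rnf19b (0.64 ± 0.13) were smaller, at edgeR adjusted p of 0.018 and 0.0181.
In the other direction, Ide (ENSMUSG00000056999, chromosome 19, 37268743 to 37337852, minus strand) had an age difference of -0.56 ± 0.06 in Siglec F-low, -0.60 ± 0.07 in asbestos Siglec F-high and 0.67 ± 0.06 in naive cells (difference from naive -1.23 ± 0.09, edgeR adjusted p 2.01e-08). Both asbestos sorts were thus lower in old mice and the naive sort higher. Sbk2 was not called in Siglec F-low cells (-0.09 ± 0.13) and rose by 1.55 ± 0.14 in naive ones (difference -1.64 ± 0.19, edgeR adjusted p 6.68e-05), and it was the gene called with all 24 libraries. Lipn, a lipase gene, and Ecm1 rose by less in Siglec F-low than in naive cells (differences -3.41 ± 0.45 and -1.28 ± 0.17, edgeR adjusted p 0.000401 for each).

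**Figure D5:**
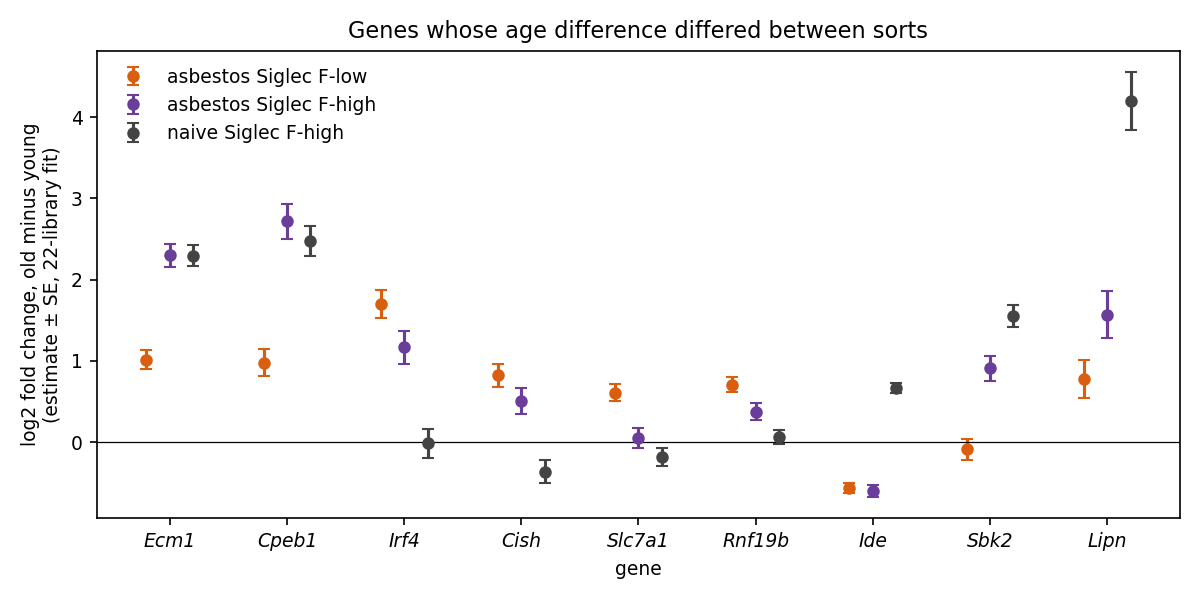
Age difference (log2 fold change, old minus young, ± SE; y axis) of 9 of the genes with a called interaction in asbestos Siglec F-low, asbestos Siglec F-high and naive Siglec F-high libraries, from the 22-library fit. Irf4 and Cish lie higher in Siglec F-low than in naive cells, Ide is above 0 in naive cells, and Ecm1, Cpeb1, Sbk2 and Lipn are lower in Siglec F-low than in the Siglec F-high sorts.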

How the data were processed

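The authors deposited raw read counts per Ensembl gene for 24 libraries. Per the submitters' processing notes the tools were bcl2fastq 2.19.1, FastQC, Trimmomatic 0.36, STAR 2.6.0 and HTSeq 0.11.2, with the genome build mm10. The annotation release and the strand setting are not given in the sources used here. Symbols were found for 42462 of 43430 gene IDs, and positions come from GENCODE on GRCm38.

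Genes were kept with filterByExpr (minimum count 10, minimum total 15), scaled with TMM factors and tested with the edgeR 4.0.16 quasi-likelihood F test in R 4.3.3, with Benjamini-Hochberg adjustment over all genes tested. The age comparison used the 8 Siglec F-low libraries; interactions and other sorts used 22. The SE is the absolute log2 fold change over the square root of F. The test was checked on simulated counts. Alternatives were RLE, upper-quartile or no factors, no filter or a minimum count of 30, DESeq2 1.42.0, voom of limma 3.58.1 with quality weights, 22 or 24 libraries, a replicate block and leaving out each library.

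The comparison, its members and the 39 gene lists (872 of 874 entries matched) were chosen with earlier results of these data known. Genes were named by rule: the 12 higher and 12 lower called genes of smallest p without overlap, the 3 members of smallest p of each list, a set of macrophage, fibrosis and stress genes, and 4 genes per direction of an interaction. Some of these are not reported here, and other list members in the text were chosen after their values were seen. Lists are described by counts and medians, with no test. Some genes are in several lists, so the counts of different lists are not separate results. Promoter sequences are from RefSeq.

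Replicate numbers of young and old mice do not mark the same animal, and same-number deviations correlated at -0.075 to 0.177. Between the 2 asbestos sorts of an age, same-number deviations correlated at 0.104 to 0.31 over 6 pairs and others at -0.272 to 0.0452. Those sorts were taken as paired, from the data and not from a label, only in the replicate block by age and number. The main interaction test did not pair them.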

Additional observations from a re-analysis of the deposited data

Results flagged for a closer look

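In 18 of 252 groups of 4 libraries examined, over the named genes and library measures, 1 library lay apart from the other 3 by Dixon's ratio of gap to range, which chance alone gives in about 1 of 20 groups. In old replicate 2 the CPM lay apart for Col4a2 (379, others 100.4 to 124), Col4a1 (395, others 79.5 to 93.7), Plin4 (103, others 3.61 to 9.44), Marco (623, others 253 to 313), Slc9a4 (95, others 105 to 106), Atf5 (44.6, others 54.9 to 56.2) and Creld2 (68.8, others 77.8 to 79). In old replicate 1 they were Cldn1 (17.1, others 11.3 to 12.1), Fbp1 (402, others 315 to 328) and Apoe (245, others 339.5 to 357). In young replicate 1 they were Irf5 (45.6, others 54 to 55.7), Csf1r (389.8, others 419.6 to 425), Ear6 (59.9, others 40.7 to 42.2) and Sbk2 (19.2, others 16.2 to 16.5), and the share of counts on mitochondrial genes was 1.47%, others 1.10 to 1.16%. In young replicate 2 they were Arg1 (214, others 132 to 137) and S100a9 (1.21, others 0.473 to 0.599), and in young replicate 4 Irf4 (7.43, others 12.6 to 13.7).

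By an edgeR interaction test that did not pair libraries, the age difference differed from that in asbestos Siglec F-high cells for 2 genes and from that in naive Siglec F-high cells for 74, of which those named by rule are given. With a replicate block by age and number over the asbestos libraries alone, the 2 became 171. Against asbestos Siglec F-high cells the differences were -1.29 for Ecm1 and -1.74 for Cpeb1 on the log2 scale. Against naive Siglec F-high cells they were 1.71 for Irf4, 1.19 for Cish, 0.79 for Slc7a1, 0.64 for Rnf19b, -1.23 for Ide, -1.64 for Sbk2, -3.41 for Lipn and -1.28 for Ecm1.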

How the results depend on the processing

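The 798 genes called between old and young Siglec F-low cells became 683 to 1191 under RLE, upper-quartile and no factors, both filters, voom, 22 libraries and a replicate block, 1225 with DESeq2, 174 with all 24 libraries, and 539 to 688 when 1 library was left out in turn. The replicate block, which pairs the ages by a shared number only, gave 683. Of 95 called named genes 34 were called in each alternative and 72 in each but the 24-library fit. To the 22 libraries, with 983 genes called, that fit adds only the 2 asbestos Siglec F-high libraries that stood apart. Why the counts were lower with these 2 was not tested. The 2 genes of the interaction with asbestos Siglec F-high cells became 29 with DESeq2, 15 with voom, 14 with a replicate block over all sorts, 171 with a replicate block by age and number over the asbestos libraries alone, 0 with 24 libraries and 2 to 4 with 1 library left out. The 74 of the interaction with naive Siglec F-high cells became 207 with DESeq2, 177 with voom, 180 with a replicate block, 1 with 24 libraries and 46 to 82 with 1 library left out. The results that changed sign were not called. Cd68 was at -0.0069 with library totals and Car4 at 0.065 with voom, and with 1 library left out Cdkn1a was at -0.0068 to 0.099, Pdgfa at -0.073 to 0.21, Col1a2 at -0.61 to 1.31, Cd68 at -0.047 to 0.073, Car4 at -0.10 to 0.052 and Apoe at -0.16 to 0.081. With 4 libraries a group and a median SE of 0.11, small differences could not be told from 0.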

Other observations

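The Y-linked genes Ddx3y, Eif2s3y, Kdm5d and Uty had log2 fold changes of -0.34, -0.38, -0.41 and -0.53, old minus young. Ddx3y was at 82.8, 101, 84.8 and 84.2 CPM in the young and 72, 53.6, 70 and 82.8 CPM in the old Siglec F-low libraries. Uty was called (edgeR adjusted p 0.0499) and the other 3 were not. Of the 4, 0 to 4 were called lower when 1 library was left out in turn, and 3 with 22 libraries. Uty was not called with all 24 libraries (edgeR adjusted p 0.3). Between the ages of naive Siglec F-high cells 3 of the 4 were called lower, at a median of -0.46, and in asbestos Siglec F-high cells 0, at a median of -0.19 (22-library fit). Xist held 4 counts in old replicate 3 and 0 in each of the other 7 libraries.

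Immediate early genes, which respond to stimulation and to tissue handling, were called higher for 4 of 22 and lower for none, at a median of 0.24. Klf4, counted above with the macrophage transcription factors, is among the 4. Junb was at 925 to 1059 CPM in young and 1200 to 1596 CPM in old libraries (0.47 ± 0.09, edgeR adjusted p 0.00811) and was not called with all 24 libraries, and Fos (0.00) and Jun (0.12) were not called. By edgeR 0 of the 22 were called in asbestos or naive Siglec F-high cells, at medians of 0.0043 and -0.06.

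Fbp1, an enzyme of gluconeogenesis, was at 92.3, 181, 77.2 and 42.6 CPM in young and 402, 328, 328 and 315 CPM in old libraries. The young libraries varied widely below all old ones (1.81 ± 0.31, edgeR adjusted p 0.00445), and Fbp1 was not called with all 24 libraries. The glycolysis genes Gapdh (0.07) and Ldha (-0.04) were not called.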
